A study of Homo sapiens with 4 samples.

Results

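Guanylate-binding proteins (GBPs) and immunity-related GTPases (IRGs) were followed in RPMI 8226, a cell line established from human multiple myeloma, in RNA taken 72 h after LNA antisense oligonucleotides were transfected. LNA stands for locked nucleic acid, and such strands are designed to pair with an RNA and lower it. The 9 genes, GBP1 to GBP7, IRGQ and IRGM, were chosen by family from 78932 gene rows of the deposited count table, with the rise of several GBP genes in these libraries already known. Their values here are therefore a description, with no test. Cells received 50 nM of an LNA against the long noncoding RNA LINC01432 (2 libraries) or a control LNA whose dose is not stated separately (2 libraries). Each group rests on a single oligonucleotide, named ASO3 for LINC01432 and ASO1 for the control. Nothing in the labels tells if libraries within a group are separate cultures, and the error behind each p-value may therefore be technical.

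GBPs are large GTPases of the dynamin superfamily whose genes are induced by interferons, mainly interferon gamma. The proteins assemble as coats on bacteria and on pathogen vacuoles and help to bring lipopolysaccharide to caspase-4. GBP1, GBP2 and GBP5 carry a C-terminal CaaX box that is prenylated and holds them on membranes. IRGM is a truncated human member of a GTPase family that is large and interferon-induced in mice, and it takes part in autophagy. IRGQ is a related protein linked to the autophagic turnover of HLA class I.

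The 7 GBP genes lie together on chromosome 1, from 89006666 to 89386461 in GRCh38, in a cluster of 380 kb that starts with GBP3 and ends with GBP6. IRGQ is on chromosome 19 (43584369 to 43596135) and IRGM on chromosome 5 (150846523 to 150900736). RefSeq promoter sequences (GRCh38.p14) matched 6 of the 9 genes: GBP1, GBP3, GBP4, GBP6, GBP7 and IRGQ. The first entry of each gene was used. GBP2, GBP5 and IRGM had no entry, so GBP2 and GBP5, also higher with LINC01432 LNA, are not covered. The following stretches of 165 bases, all from the minus strand of the chromosome, surround the start of transcription given by RefSeq. They run from 150 bases before to 15 bases after that start. They are shown because GBP1 and GBP4 had much higher levels with LINC01432 LNA and GBP3, the closest relative of GBP1, did not. Capitals mark matches to the core of the interferon-stimulated response element (ISRE), which is GAAA, any 2 bases and GAAA on either strand, and to the core of the gamma-activated site (GAS), which is TTC, any 3 bases and GAA. No ISRE match overlapped a GAS match.
GBP1 (chr1:89065194-89065358): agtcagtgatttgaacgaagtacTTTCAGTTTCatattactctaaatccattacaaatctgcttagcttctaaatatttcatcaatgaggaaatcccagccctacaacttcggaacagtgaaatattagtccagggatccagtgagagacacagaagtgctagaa
GBP3 (chr1:89022852-89023016): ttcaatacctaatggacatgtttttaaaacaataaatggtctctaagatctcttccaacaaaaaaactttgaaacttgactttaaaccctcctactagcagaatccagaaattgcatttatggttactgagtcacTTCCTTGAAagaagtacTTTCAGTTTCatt
GBP4 (chr1:89198928-89199092): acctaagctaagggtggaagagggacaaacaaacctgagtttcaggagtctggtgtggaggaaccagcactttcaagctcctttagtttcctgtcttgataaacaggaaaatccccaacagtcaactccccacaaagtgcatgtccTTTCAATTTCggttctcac
Over the whole windows of 250 bases before to 50 after the start, the ISRE core was present in 3 of the 6 genes (GBP1, GBP3 and GBP4), as in 3.57% of 34943 RefSeq promoters. The GAS core was present in 1 of the 6, GBP3, as in 7.66% of the promoters. The ISRE letters lay from -127 to -118 in GBP1, from -4 to 6 in GBP4 and from 3 to 12 in GBP3, counted from the first transcribed base as 1 with no 0. GBP1 and GBP3 shared a run of 19 bases around it, gaagtactttcagtttcat, which began at -134 in GBP1 and at -5 in GBP3. Neither set of letters was found in these windows of GBP6, GBP7 or IRGQ.

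The libraries held 20873393 and 26185342 gene counts with LINC01432 LNA and 29161298 and 24493148 with control LNA. LINC01432 itself was at 8.98 and 9.88 CPM (counts scaled to a common library size, with TMM factors) in the LINC01432 LNA libraries and at 20.5 and 17.9 CPM in the control LNA libraries. The groups did not overlap, at log2 -1.02 (standard error 0.11, edgeR adjusted p = 0.000228). Of 10 plasma cell markers, 9 exceeded 1 CPM in each library, the exception being CD27. CD38 among them was higher (1.65-fold, edgeR adjusted p = 0.000434), while TNFRSF17 (log2 -0.53, edgeR adjusted p = 0.00158) and XBP1 (log2 -0.35, edgeR adjusted p = 0.0159) were lower. The 7 myeloid markers summed to 4.33 and 5.49 CPM with LINC01432 LNA and to 3.53 and 3.62 CPM with control LNA, with LYZ at 0. The 8 endothelial and fibroblast markers summed to 6.28 and 7.75 CPM against 4.56 and 4.76 CPM, and COL1A1 among them passed as higher (log2 0.86, edgeR adjusted p = 0.0272). The 7 T and NK cell markers summed to 1.91 and 2.57 CPM against 1.37 and 1.79 CPM, and the 5 epithelial markers, mostly EPCAM and KRT18, to 99.6 and 99.0 CPM against 118 and 114 CPM. The part of these markers in the GBP values was not tested. In bulk RNA, a change in the number of cells that express a gene and a change in RNA per cell cannot be told apart.

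Of the 9 genes, 7 passed the filter on low counts. In the fit across 18680 genes, 4 of these 7 (GBP1, GBP2, GBP4 and GBP5) were past the threshold (edgeR adjusted p under 0.05 over all tested genes) as higher, where 7.5% of all tested genes were, and 0 as lower, where 4.37% were. At an unadjusted edgeR p under 0.05, 6 were higher and 0 lower, beside 2688 and 2104 of all 18680 tested genes. DESeq2 called 3 higher and 0 lower and gave no adjusted p for 1. Over all tested genes 1401 were higher and 817 lower, and with a correction for GC content 927 were higher and 998 lower. Both LINC01432 LNA libraries lay above both control LNA libraries for each of the 7, as they did for 28.2% of all tested genes, and 0 of the 7 had both below, as 25.9% did. These shares are printed for orientation only, since the genes were chosen with this comparison known.

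**Figure D1:**
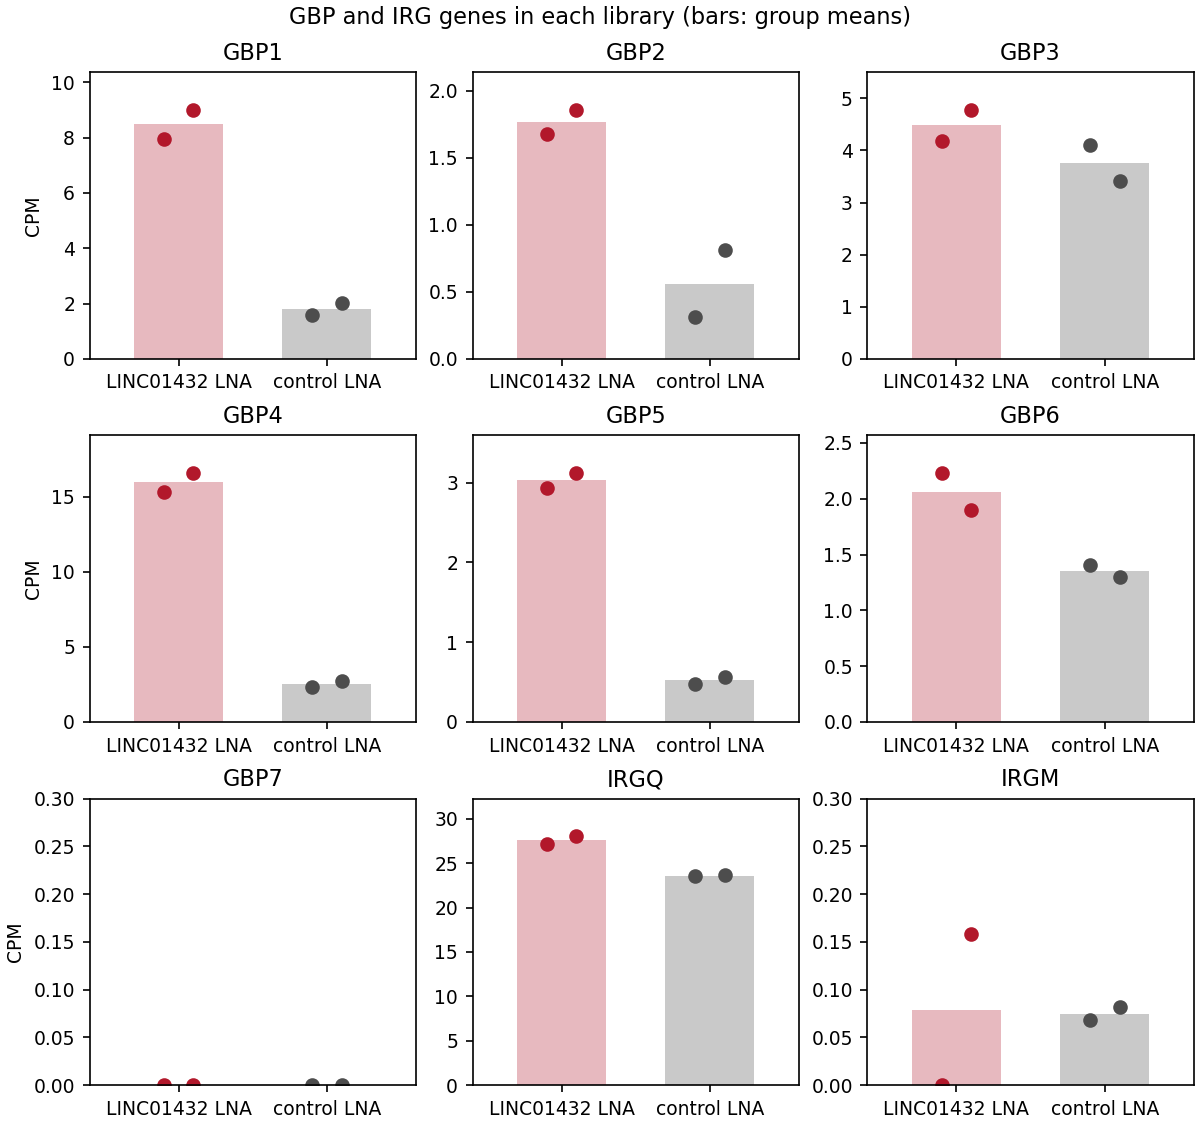
CPM (linear axis) of each of the 9 genes in the 2 LINC01432 LNA libraries (red points, left) and the 2 control LNA libraries (grey points, right), with bars at the group means and a scale of its own in each panel. GBP1, GBP2, GBP4 and GBP5 show the wide gaps between groups, GBP3, GBP6 and IRGQ narrow ones, GBP7 is at 0, and IRGM rests on at most 4 counts per library.

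GBP1 is the protein that starts the coat on Gram-negative bacteria. It had 171 and 228 counts with LINC01432 LNA and 46 and 50 counts with control LNA. In CPM these were 7.95 and 9.01 against 1.58 and 2.03, so that the groups stood far apart. The fold change was 4.74 (log2 2.24, standard error 0.18). Its transcript is the least unique of the expressed members: 13.3% of its stretches of 50 bases also occur in another gene of GENCODE 29, chiefly the pseudogene GBP1P1 and GBP3.

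GBP4, which joins the coat and is known to help recruit caspase-4, had the highest CPM of the GBP genes with LINC01432 LNA. It had 330 and 420 counts with LINC01432 LNA and 68 and 67 with control LNA, or 15.3 and 16.6 CPM against 2.33 and 2.72 CPM. Both LINC01432 LNA libraries thus exceeded both control LNA libraries by a wide margin. With a fold change of 6.35 (log2 2.67, standard error 0.14) it ranked 25 among all 18680 tested genes by log2 fold change. GBP5 ranked 29 and GBP1 ranked 51.

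GBP3, which also enters the coat, shares 91.6% of aligned coding bases with GBP1 and lies next to it among the GBP genes. It had 90 and 121 counts with LINC01432 LNA and 120 and 84 with control LNA. The CPM were 4.19 and 4.78 against 4.11 and 3.42, so that the groups were separated only by the gap between 4.19 and 4.11. Its log2 fold change was 0.25 with a standard error of 0.18, and it was not past the threshold. GBP3 was thus the most abundant GBP gene per kb with control LNA and the one with the smallest fold change.

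GBP2 and GBP5 both lower the activity of the protease furin, which processes viral envelope proteins. GBP5 had 63 and 79 counts with LINC01432 LNA and 14 and 14 with control LNA, or 2.93 and 3.12 CPM against 0.480 and 0.569 CPM. The groups were clearly apart and the fold change was 5.77 (log2 2.53, standard error 0.28). No stretch of 50 bases of the GBP5 transcript used here occurs in another gene.

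GBP2 had 36 and 47 counts with LINC01432 LNA and 9 and 20 with control LNA, or 1.67 and 1.86 CPM against 0.308 and 0.813 CPM. The LINC01432 LNA libraries were higher, but the control LNA libraries differed from each other by more than a factor of 2. The fold change was 3.23 (log2 1.69, standard error 0.39). Without control LNA library 1 it was 2.14 and not past the threshold, and without control LNA library 2 it was 5.62. DESeq2 gave no adjusted p for GBP2. In GENCODE 29, 9.90% of the exonic bases of GBP2 overlap GBP7 on the same strand.

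GBP6 and GBP7 are the less studied members, GBP6 being known mainly from squamous epithelium. GBP6 had 48 and 48 counts with LINC01432 LNA and 41 and 32 with control LNA. In CPM these were 2.23 and 1.90 against 1.40 and 1.30, with no overlap. The log2 fold change of 0.60 (standard error 0.25) was not past the threshold. GBP7 had 0 counts in each library, where the 3 counts taken as the floor were worth 0.119 to 0.140 CPM with LINC01432 LNA and 0.103 to 0.122 CPM with control LNA. Of its transcript, 24.4% of the stretches of 50 bases occur in GBP2 or GBP4, and 25.3% of its exonic bases overlap GBP2. How reads from those stretches were assigned was not tested.

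IRGQ had the highest CPM of the 9 genes. It had 583 and 710 counts with LINC01432 LNA and 686 and 583 with control LNA, or 27.1 and 28.1 CPM against 23.5 and 23.7 CPM. The groups did not overlap, but the difference was small, with a fold change of 1.17 (log2 0.23, standard error 0.09) that was not past the threshold. Without LINC01432 LNA library 1 it was past the threshold at an almost equal log2 value of 0.23. IRGM was close to undetected, with 0 and 4 counts with LINC01432 LNA and 2 and 2 with control LNA. It failed the filter and no fold is given, since the groups are at or near the floor.

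**Figure D2:**
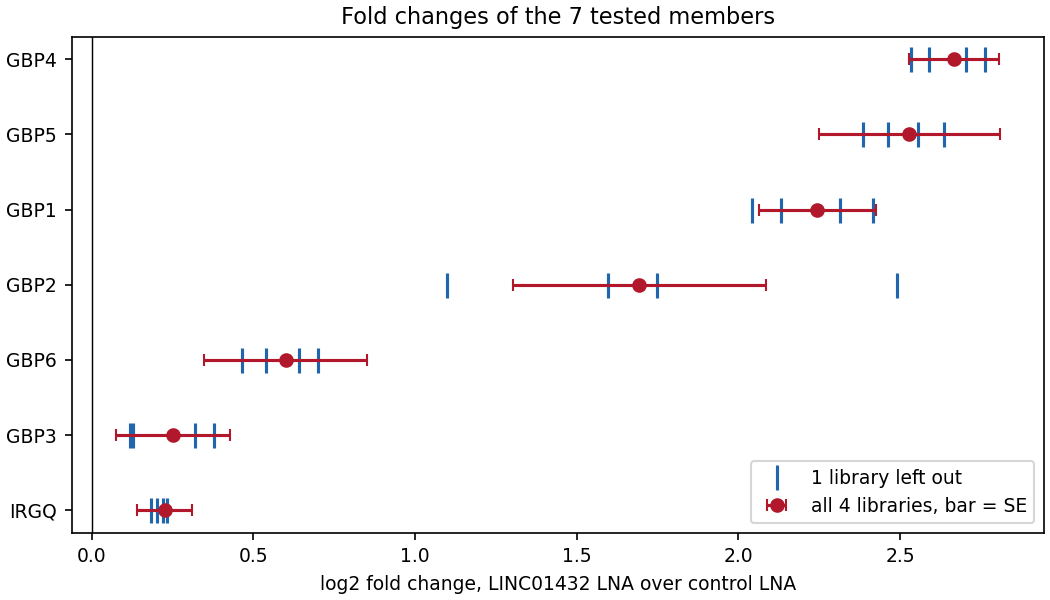
Log2 fold change of LINC01432 LNA over control LNA for the 7 genes that passed the filter (horizontal axis). Red points with bars are the values from all 4 libraries with their standard error and blue ticks the values with 1 library left out, which stay close for GBP4, GBP5 and GBP1 and reach from fold changes of 2.14 to 5.62 for GBP2.

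Divided by exon length (CPM per kb of exon, GENCODE 29), the levels fell into a different order in the LINC01432 LNA and control LNA libraries. With LINC01432 LNA the order was IRGQ (2.80 ± 0.0681 CPM per kb; SD, n = 2), GBP4 (2.61 ± 0.145), GBP1 (1.70 ± 0.150), GBP3 (1.04 ± 0.0982), GBP6 (0.691 ± 0.0793), GBP5 (0.372 ± 0.0167) and GBP2 (0.281 ± 0.0207), and neighbours in that order did not overlap. With control LNA it was IRGQ (2.39 ± 0.0144), GBP3 (0.876 ± 0.115), GBP6 (0.453 ± 0.0245), GBP4 (0.412 ± 0.0455), GBP1 (0.362 ± 0.0647), GBP2 (0.0894 ± 0.0569) and GBP5 (0.0644 ± 0.00778). There the libraries of GBP6 and GBP4 overlapped, as did those of GBP4 and GBP1 and those of GBP2 and GBP5. Exon length here is that of all annotated exons of a gene together, which need not match the isoforms in these cells.

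The order depended on that choice. Per kb of the transcript with the longest coding sequence, an alternative chosen after the values were seen, IRGQ (2.85 ± 0.0694 CPM per kb; SD, n = 2), GBP1 (2.79 ± 0.247) and GBP4 (2.61 ± 0.145) led with LINC01432 LNA, and the libraries of neighbours overlapped. GBP5 (1.46 and 1.55) and GBP3 (1.36 and 1.56, each per library) followed, also with overlap, and then GBP2 (0.796 ± 0.0584) and GBP6 (0.691 ± 0.0793). With control LNA the order was then IRGQ (2.44 ± 0.0147), GBP3 (1.23 ± 0.160), GBP1 (0.595 ± 0.106), GBP6 (0.453 ± 0.0245), GBP4 (0.412 ± 0.0455), GBP5 (0.261 ± 0.0315) and GBP2 (0.253 ± 0.161). In that order the libraries of GBP6 and GBP4 overlapped, as did those of GBP5 and GBP2. GBP3 was the highest GBP gene with control LNA by either length.

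Per kb of all exons, the summed GBP level was 6.45 and 6.94 CPM per kb with LINC01432 LNA and 2.23 and 2.28 CPM per kb with control LNA. GBP4 made up 38.9% and 39.0% of that sum with LINC01432 LNA, against 17.0% and 19.5% with control LNA. GBP1 made up 24.7% and 26.0% against 14.2% and 17.8%. GBP3 went the other way, with 15.1% and 16.0% in LINC01432 LNA libraries against 42.9% and 34.8% in control LNA libraries, and GBP6 had 11.6% and 9.15% against 21.1% and 19.1%. GBP4 thus had the largest share in both LINC01432 LNA libraries and GBP3 in both control LNA libraries. By the other length GBP1 had the largest share with LINC01432 LNA, at 27.7% and 28.9% beside 26.5% and 26.4% for GBP4, and GBP3 again with control LNA, at 43.4% and 33.6%. The shares of GBP3 and GBP6 were lower with LINC01432 LNA although their own CPM were not.

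**Figure D3:**
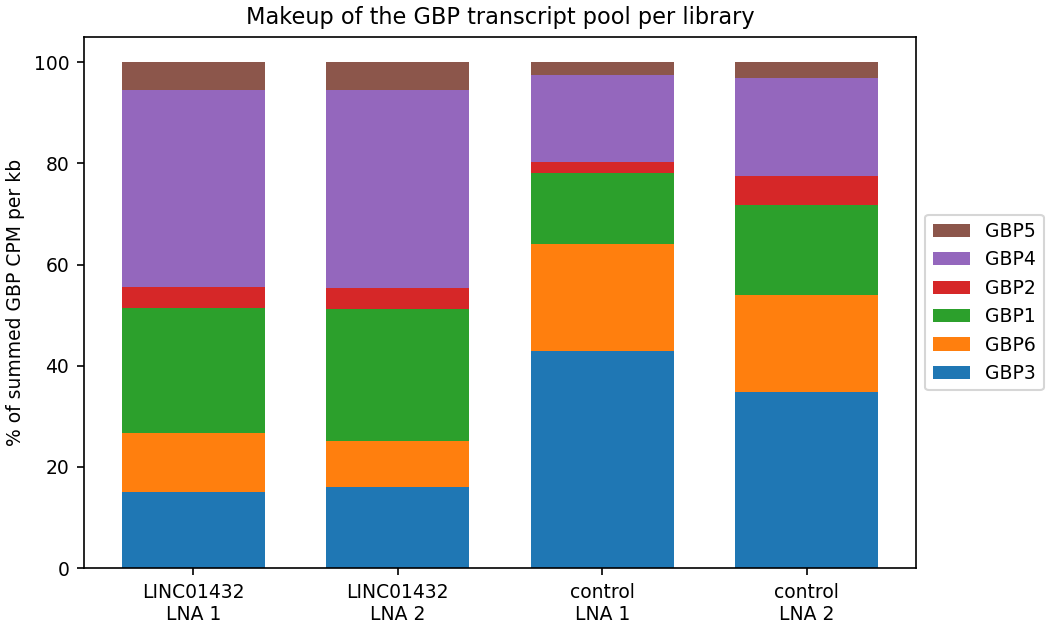
Share of each GBP gene in the summed GBP CPM per kb of all annotated exons (percent, stacked bars) in LINC01432 LNA libraries 1 and 2 and control LNA libraries 1 and 2. GBP4 holds 38.9% and 39.0% in the LINC01432 LNA libraries and GBP3 holds 42.9% and 34.8% in the control LNA libraries.

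By coding sequence the GBP genes form 2 sets, GBP1, GBP2, GBP3 and GBP5 with 74.1% to 91.6% identical aligned bases within the set, and GBP4, GBP6 and GBP7 with 77.3% to 85.4%, against 65.4% to 69.8% between the sets. The genes past the threshold came from both sets (GBP1, GBP2 and GBP5 from one, GBP4 from the other), and so did those that were not (GBP3 and GBP6). By position, GBP3 and GBP6 are the outermost genes of the cluster, and GBP1, GBP2, GBP4, GBP5 and the undetected GBP7 lie between them. Identity of coding bases also bears on counting: where paralogs are this alike, reads may be split between them, so the division of counts between GBP1 and GBP3 is uncertain. Of the stretches of 50 bases, 13.3% in GBP1 and 4.14% in GBP3 occur in another gene. How reads from them were assigned was not tested.

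Other genes around the cluster were examined in a window of 500 kb on each side, a choice made after the count table was open. Of 10 non-GBP genes tested there, 0 were higher and 1 lower by edgeR, where 7.5% and 4.37% of all tested genes were. A set of 10 genes is too small to tell these counts from those shares. At an unadjusted edgeR p under 0.05, 2 were higher and 2 lower, beside 2688 and 2104 of all 18680 tested genes. DESeq2 called 0 higher and 1 lower. The median log2 fold change of the 10 genes was -0.04 beside 0.01 over all tested genes. The gene that was lower was PKN2, a kinase of the cell cortex and junctions, with 10.7 ± 1.62 CPM with LINC01432 LNA and 15.0 ± 1.03 CPM with control LNA (SD, n = 2; log2 -0.49, standard error 0.12, edgeR adjusted p = 0.0259). It was not called without control LNA library 1 (log2 -0.43, edgeR adjusted p = 0.210) or with library totals as the only scaling (log2 -0.49, edgeR adjusted p = 0.0603). The noncoding neighbours PKN2-AS1 and LRRC8C-DT had log2 values of 1.13 and 1.12, each at about 1 CPM or less and not past the threshold. The only other tested gene inside the cluster, the pseudogene PTGES3P1, had a log2 value of 0.11. Without LINC01432 LNA library 1 or 2, more neighbours were called, as were more of all tested genes.

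**Figure D4:**
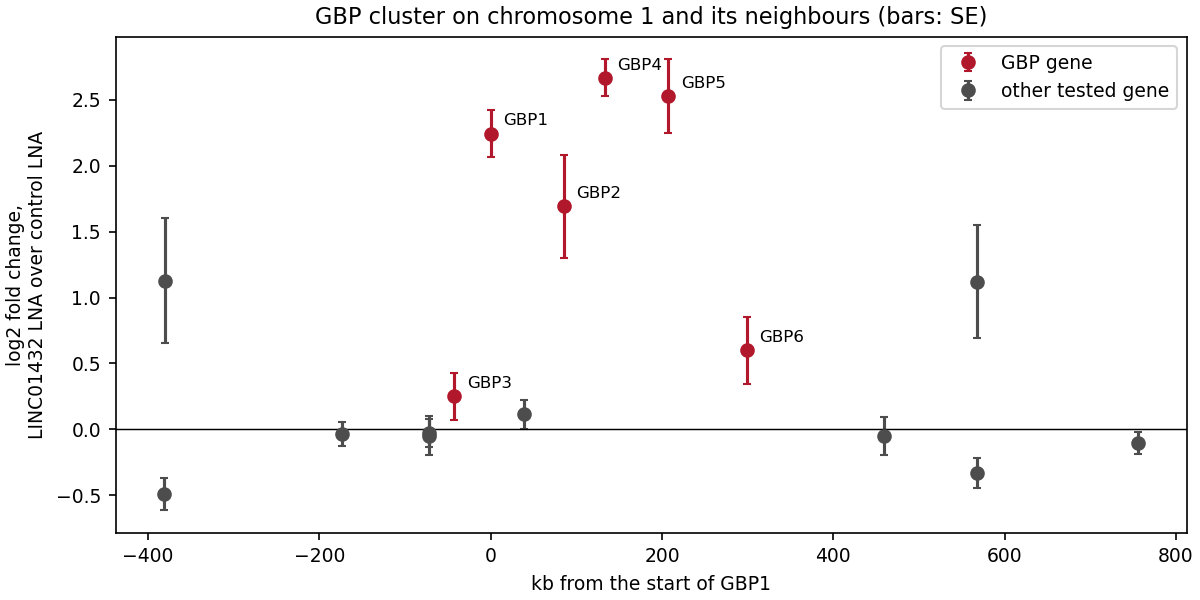
Log2 fold change of LINC01432 LNA over control LNA (vertical axis, bars are standard errors) against the distance of each gene's start from that of GBP1 in kb (horizontal axis). Red points are the 6 tested GBP genes, grey points the 10 other tested genes of the window. GBP1, GBP2, GBP4 and GBP5 stand between 1.69 and 2.67. Protein-coding neighbours lie between -0.49 (PKN2) and -0.03 (RBMXL1), and of these only PKN2 was past the threshold.

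The list below and those of the next paragraphs were chosen with earlier results of these data known. Their counts are thus a description, and the shares beside them are for orientation only. The receptors, kinases and transcription factors that control GBP transcription were followed in a list of 17 genes, all tested. Of these 6 rose and 0 fell by edgeR, where 7.5% and 4.37% of all tested genes did. DESeq2 also called 6 higher and 0 lower. At an unadjusted edgeR p under 0.05, 7 were higher and 2 lower, beside 2688 and 2104 of all 18680 tested genes. The median log2 fold change of the list was 0.15 beside 0.01 over all tested genes. IRF1, a transcription factor that binds ISRE sequences, was at 86.6 and 85.5 CPM with LINC01432 LNA against 56.7 and 58.3 CPM with control LNA (log2 0.58, edgeR adjusted p = 0.000703). The groups did not overlap, and 22.0% of its exonic bases overlap other genes. IRF8, a related factor of immune cells, rose 1.43-fold (edgeR adjusted p = 0.00189). IRF2, IRF9 and STAT2 had log2 values of 0.004, 0.35 and 0.33 and did not pass.

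Inhibitors of the pathway were among the genes that rose. SOCS1, which blocks JAK kinases, was at 14.3 and 15.2 CPM with LINC01432 LNA against 3.46 and 4.55 CPM with control LNA (3.71-fold, edgeR adjusted p = 2.48e-05). With the GC correction SOCS1 was 2.39-fold higher. USP18, which restrains the type I interferon receptor, rose 2.78-fold (edgeR adjusted p = 6.86e-05), and SOCS3, another inhibitor of cytokine signalling, rose 2.05-fold (edgeR adjusted p = 0.00915). The receptor genes did not pass: IFNGR1 had a log2 value of -0.01, IFNGR2 of 0.05, IFNAR1 of -0.27 and IFNAR2 of -0.32. The kinases JAK1, JAK2 and TYK2 had log2 values of -0.16, -0.06 and 0.11 and did not pass. Neither did PTPN2, also an inhibitor, with a log2 value of 0.15. Without LINC01432 LNA library 1 or 2, calls as lower appeared among the 17 genes, in fits that also called more of all tested genes lower.

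Proteins that act with GBPs or downstream of them were a list of 14 genes, of which 9 were tested. Of these 4 rose and 0 fell by edgeR, beside the same 7.5% and 4.37%, and DESeq2 also called 4 higher and 0 lower. At an unadjusted edgeR p under 0.05, 7 were higher and 0 lower, beside 2688 and 2104 of all 18680 tested genes. The median log2 fold change of the list was 0.36. RNF213, a giant E3 ligase that ubiquitylates bacterial lipopolysaccharide, was at 400 and 376 CPM with LINC01432 LNA against 197 and 206 CPM with control LNA (1.93-fold, edgeR adjusted p = 4.47e-05). APOL3, a detergent-like protein that attacks bacterial membranes opened by GBP1, rose 2.74-fold (edgeR adjusted p = 0.000246), and AIM2, a sensor of cytosolic DNA, rose 2.76-fold (edgeR adjusted p = 0.00154). GSDMD, the pore protein of pyroptosis, was called at 1.28-fold (edgeR adjusted p = 0.0306). That call was lost without either control LNA library, and with a correction for GC content its log2 value was -0.04 instead of 0.36. CASP4, the lipopolysaccharide receptor that GBP coats recruit, had 30.3 and 33.4 CPM with LINC01432 LNA against 29.2 and 28.9 CPM with control LNA and did not pass. The inflammasome genes NLRP3, PYCARD, IL1B and IL18 were not tested, with at most 6 counts in a library, and CASP5 had 0 counts in each. Without LINC01432 LNA library 1 more genes of the list were called higher, as were more of all tested genes.

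The 6 enzymes that prenylate and trim CaaX proteins (FNTA, FNTB, PGGT1B, RCE1, ICMT and ZMPSTE24) had log2 values from -0.24 to 0.07. By edgeR 0 of them rose or fell, where 7.5% and 4.37% of all tested genes did, and 6 genes are too few to tell from those shares. At an unadjusted edgeR p under 0.05, 0 were higher and 1 lower, beside 2688 and 2104 of all 18680 tested genes, and DESeq2 called 0. Without LINC01432 LNA library 1 or 2, calls as lower appeared among them, in fits that also called more of all tested genes lower. With the GC correction 1 was called lower too. Of 12 autophagy genes known as partners of IRGM or IRGQ or as core conjugation factors, 10 were tested. By edgeR 1 rose and 0 fell, a share near the 7.5% and 4.37% of all tested genes. At an unadjusted edgeR p under 0.05, 1 was higher and 1 lower, beside the same 2688 and 2104 genes, and DESeq2 called 0. The gene called was ULK1, the kinase that starts autophagy, at 1.24-fold (edgeR adjusted p = 0.0450). ULK1 was not called without control LNA library 1, control LNA library 2 or LINC01432 LNA library 2 (log2 0.26, 0.32 and 0.24), and with the GC correction its log2 value was -0.06 instead of 0.31. Without LINC01432 LNA library 1 more of these genes were called in each direction, as were more of all tested genes. GABARAPL2, a binding partner of IRGQ, had a log2 value of -0.01 and did not pass.

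Of 13 related GTPases, 11 were tested, 2 rose and 2 fell, where 7.5% and 4.37% of all tested genes did. The antiviral dynamin relatives MX2 and MX1 rose 2.27-fold (edgeR adjusted p = 0.000221) and 1.61-fold (edgeR adjusted p = 0.00183). MX1 averaged 2313 CPM with LINC01432 LNA and 1441 CPM with control LNA (SD 212 and 159, n = 2). The atlastin ATL2, which fuses ER membranes and belongs to the family nearest to the GBPs, was at 25.5 ± 1.57 CPM with LINC01432 LNA and 34.9 ± 1.13 CPM with control LNA (SD, n = 2; log2 -0.45, edgeR adjusted p = 0.00675), and the mitofusin MFN1 had a log2 value of -0.31 (edgeR adjusted p = 0.0298). MX1 was not called without control LNA library 1 (log2 0.56), ATL2 not without control LNA library 2 (log2 -0.43) and MFN1 not without either control LNA library. With the GC correction MFN1 was not called either. Without LINC01432 LNA library 1 more of the 11 were called lower, as were more of all tested genes. The median log2 fold change of the list was -5.19e-05.

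**Figure D5:**
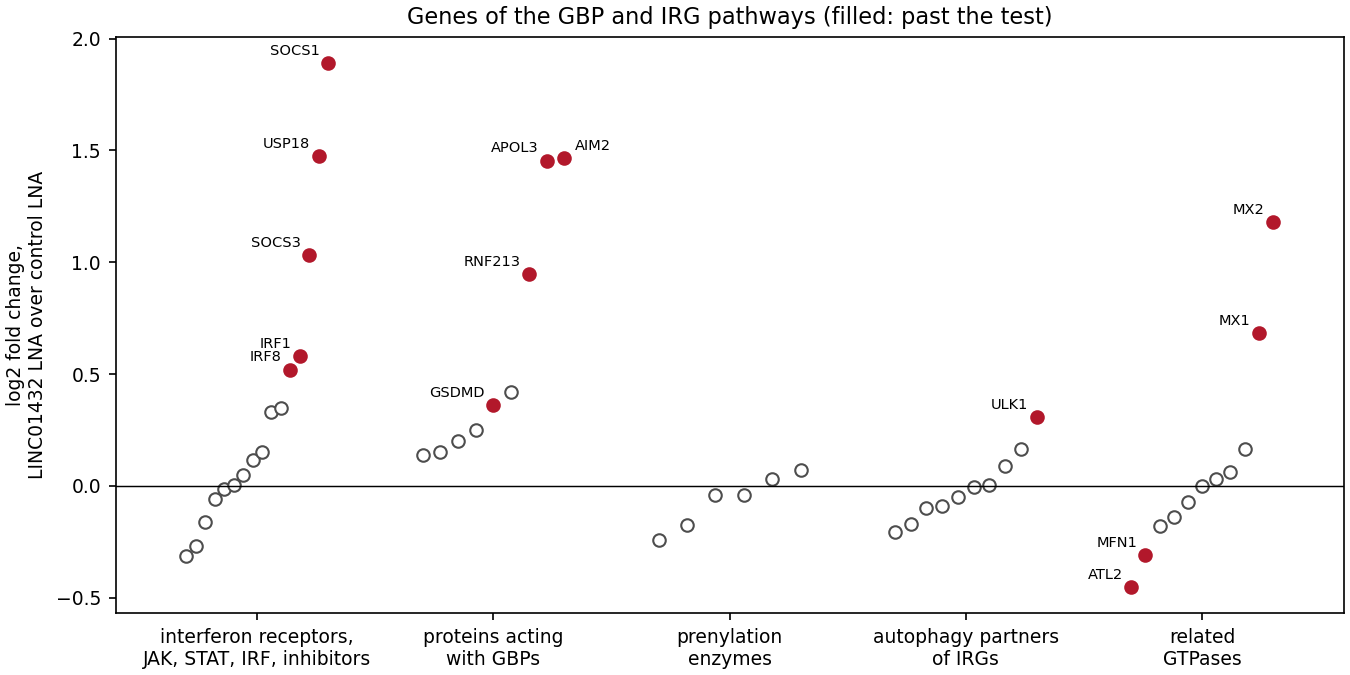
Log2 fold change of LINC01432 LNA over control LNA (vertical axis) for the tested genes of 5 lists except 1 gene that is counted but not drawn, spread sideways in order of their value. Filled red points with names passed the edgeR test in either direction and open points did not; SOCS1, GSDMD and ULK1, drawn at 1.89, 0.36 and 0.31, had 1.26, -0.04 and -0.06 after correction for GC content, which put SOCS1 below AIM2 (1.56), APOL3 (1.49) and USP18 (1.46).

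The likeness of other genes to GBP4 was measured as the root mean square distance between log2(CPM + 1) profiles over the 4 libraries, each centred on its mean, among 10116 genes with at least 5 CPM on average. The nearest were CXCL9, a chemokine that attracts T cells (0.091), IL4I1, a secreted amino acid oxidase (0.097), CCDC85B, a coiled-coil protein (0.13), LRRC26, a subunit of a potassium channel (0.18), and the histone gene H2AC25 (0.22). In CXCL9 the CPM were 24.0 and 27.8 with LINC01432 LNA against 4.04 and 5.61 with control LNA. With 4 libraries in 2 groups, likeness means little more than a similar difference between groups on the log2(CPM + 1) scale. CCDC85B and H2AC25 had fold changes of 4.34 and 3.78, beside 6.35 for GBP4. The values of LRRC26 and CCDC85B were sensitive to base composition. LRRC26 had a log2 value of 3.14 and of 2.20 after GC correction, and CCDC85B of 2.117 and 1.565. CXCL9, IL4I1 and H2AC25 had 2.44, 2.55 and 1.92, and 2.55, 2.34 and 1.82 after the correction. Other genes overlap 27.9% of the exonic bases of LRRC26 and 13.1% of those of IL4I1.

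GBP genes are poor in GC, from 39.5% (GBP5) to 44.4% (GBP2) of the longest transcript, and IRGQ has 52.5%. With the GC correction the log2 values of GBP4, GBP5, GBP1 and GBP2 were 2.75, 2.64, 2.32 and 1.76, somewhat higher than without it, and the same 4 genes were past the threshold. GBP3, GBP6 and IRGQ had 0.36, 0.66 and 0.20 and were not.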

How the data were processed

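RNA-seq of 2 LINC01432 LNA and 2 control LNA libraries was analysed from the deposited table of whole-number counts per gene, which the authors did not normalize. The submitters' processing notes name bcl2fastq, STAR (2.7.11b), Salmon (1.10.0), featureCounts (2.0.8) and GRCh38. Their roles, the annotation release, the strand setting and the handling of reads shared by genes are not given here. The series text names poly(A) selection and the labels' protocol removal of ribosomal RNA. Spike-in and transgene rows (97, at most 4.2e-05% of a library) were left out.

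Symbols came from a table holding 61481 of 78932 gene IDs, and exon length, overlap and GC content from GENCODE 29, which held 57356. The members and lists were chosen with earlier results of these data known. The test was edgeR 4.0.16 (R 4.3.3) quasi-likelihood, TMM, filterByExpr (minimum count 10, total 15), group as the only term, Benjamini-Hochberg adjusted p under 0.05 over all 18680 tested genes. Standard errors come from the F statistic. Those of the DESeq2 Wald test were larger for each tested member, at 0.27 for GBP1, 0.22 for GBP4 and 0.45 for GBP5. The step was run on simulated counts with the same spread for all genes and no GC trend. That run cannot show error rates in these data. With 2 libraries per group, significance rests on the spread pooled across genes (biological coefficient of variation 7.13%). Precision of low genes is limited by counting.

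Alternatives were DESeq2 1.42.0 scaling and Wald test, library totals, no filter, a block for the replicate number, fits without each library in turn, a per-library lowess correction (span 0.3) on GC content and, added after the values were seen, another transcript length. Named were all members, LINC01432, up to 4 called genes per list with the smallest p (SOCS3 and IRF8, and uncalled list genes, were added after their values were seen) and the 5 genes most like GBP4; 1 gene of the list of regulators is counted but not reported here. Coding identity used global alignment in Biopython 1.88. Plots were drawn with matplotlib 3.10.9.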

Additional observations from a re-analysis of the deposited data

How the results depend on the processing

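GBP1, GBP4 and GBP5 were past the threshold under each alternative run, and the members counted as higher were 3 (GBP2 lost without control LNA library 1) to 5 (IRGQ gained) without 1 library, and 0 were lower. LINC01432 stayed lower, with log2 values from -1.13 to -0.94 without 1 library. The same-numbered libraries are not known to be paired. With the replicate block, 2245 genes were higher and 1617 lower instead of 1401 and 817 (correlation of deviations 0.18), and IRGQ was past the threshold; 1 regulator and 1 prenylation gene were lower, and of the cluster's neighbours 1 was higher and 2 lower. With the GC correction 927 genes were higher and 998 lower, 1 prenylation gene and 1 related GTPase were lower, and the log2 values of GSDMD and ULK1 were -0.0436 and -0.0610. ULK1 left 0 autophagy genes higher with DESeq2 scaling, library totals, no filter, the DESeq2 test and the GC correction, and library totals left 0 neighbours lower. Without 1 library, 566 (without control LNA library 1) to 2637 (without LINC01432 LNA library 1) genes were higher and 200 to 2591 lower, at the same libraries. In each such fit the lone library of a group is assumed to vary like the pair of the other group. Over these 4 fits 4 to 8 regulators, 3 to 8 GBP effectors, 0 to 2 autophagy genes, 1 to 2 related GTPases, 0 prenylation genes and 0 to 1 neighbours were higher, and 0 to 3 regulators, 0 to 2 prenylation genes, 0 to 1 autophagy genes, 0 to 4 related GTPases and 0 to 2 neighbours lower. Of 260 values of single genes under these alternatives, 19 lost the threshold, 2 of them with a turned sign (GSDMD and ULK1 above), 2 gained it and 1 had no adjusted p; the cause was not tested. SOCS1 was 2.39-fold instead of 3.71-fold higher with the GC correction. The order of GBP levels depended on the transcript length used. GBP2, GBP5, IRGM and GBP7 had few or 0 counts in the control LNA libraries, and the cause of that was not tested.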
